A study of Mus musculus with 4 samples.

Results

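The array used for these 4 subsets of CD8 T cells carries 56605 probes that are not controls, and 20719 of them are labelled with something other than a RefSeq transcript accession. The 10529 of these that were well above background on at least 1 array, called members, are described here. They were chosen by 2 values in the array files: an identifier that does not begin with NM_, NR_, XM_ or XR_, and the flag for a spot well above background. Since the flag comes from the measured signal, the number of such probes and the fact that each has signal somewhere are descriptions of the choice.

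The RNA came from sorted CD8 T cells of spleen and lymph node, taken from untreated C57BL/6 mice that were PD-1-/- and 1 to 3 months old. Every subset, including the reference subsets, therefore comes from animals without PD-1, the coinhibitory receptor of activated T cells. P1 cells were CD44low CD62Lhigh (naive phenotype), P2 was CD44high CD62Lhigh (central memory phenotype), P3 was CD44high CD62Llow (effector and effector memory phenotype) and P4 was CD44low CD62Llow, the subset named in the title of the study. Each subset was hybridised to 1 array and all 4 arrays lay on 1 slide, so differences cannot be set against a spread between replicates and no test was made. Subset and array position cannot be told apart. The number of mice pooled for a sort, and gates beyond CD8, CD44 and CD62L, were not given in the sources used here.

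Transcripts outside the curated RefSeq set include long noncoding RNAs, antisense transcripts, pseudogenes, rearranging antigen receptor segments and full-length cDNA clones that were never merged into a curated gene model. Long noncoding RNAs act in many ways: some coat chromatin and silence genes in cis, some form the scaffold of nuclear bodies, and some hold transcription factors in the cytoplasm. Many are expressed in few cell types. Probes to such sequences can also lie in introns or in the 3′ ends of protein-coding genes.

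The identifiers fell into 10 classes. The largest was the 4240 probes with Ensembl mouse transcript identifiers (ENSMUST), followed by 2850 probes to RIKEN and other cDNA clones with AK accessions. Another 2112 were named by a genomic region on the mm9 mouse build (chr), each with a suffix F or R whose meaning the files do not state. There were 535 other GenBank accessions, 353 NAP identifiers, 296 probes to BC accessions, 85 known only by their Agilent probe name (A_), 48 TC identifiers, 6 probes named by an RNA and 4 with NP identifiers. The files used here hold no gene name and no probe sequence. Accessions listed as a synonym of 1 gene, and RNA names, gave a name to 15 of these probes, while 10514 are known by their identifier alone. None of the ENSMUST identifiers (0 matched) could be given a gene name here.

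Of the 15 named probes, 2 were at least 2-fold apart between subsets with signal on all 4 arrays, the probes to Kcnq1ot1 and Cd226. With such signal, 20.8% of members and 18.4% of all probes were that far apart, so the count of 2 does not set named probes apart. Kcnq1ot1 is the long noncoding RNA that is transcribed from an imprinted promoter on the paternal chromosome and silences neighbouring genes in cis. Its promoter is shown because DNA methylation of the maternal imprinting control region, which holds the promoter, keeps the RNA silent on that chromosome, and it is printed with the CG dinucleotides in capitals. The sequence is chr7:143296498-143296797 on the minus strand of GRCm38.p6 from RefSeq, from upstream of the start to just within the transcript, and is not the sequence of a probe.
Kcnq1ot1 promoter: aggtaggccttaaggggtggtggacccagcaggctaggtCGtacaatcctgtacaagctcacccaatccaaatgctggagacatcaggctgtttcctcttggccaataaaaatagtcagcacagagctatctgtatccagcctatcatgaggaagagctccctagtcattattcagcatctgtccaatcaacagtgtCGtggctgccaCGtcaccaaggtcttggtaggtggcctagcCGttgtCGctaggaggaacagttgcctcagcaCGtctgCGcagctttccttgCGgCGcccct
The window holds 9 CG dinucleotides, and 45.8% of 32851 promoter windows of the same length hold as many, the median being 7. Methylation was not measured in these cells.

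Values are given as levels, the log2 of the processed signal minus the log2 of the array's 75th percentile, so that a level of 0 is the 75th percentile and a difference of 1 is 2-fold. Probes below the dimmest signal counted as well above background on an array were set to that signal, the floor, at -4.67 (P1), -4.58 (P2), -5.36 (P3) and -4.82 (P4), and differences from such values are bounds written as "at least". The 75th percentile was a signal of 481, 480, 799 and 453 from P1 to P4, so the P3 array was the brightest and reached lowest below its own percentile. A probe at the floor on both arrays thus already differed by -0.69 for P3 minus P1 and -0.78 for P3 minus P2. For P4 minus P3 it differed by 0.54, so bounds lean towards lower in P3, for members and other probes alike. Members with repeated spots, 159 to 161 per array, had a pooled SD of 0.058 to 0.082 on the log2 scale. Spot noise alone then gives a difference between 2 single spots a 95% half-width of 0.16 to 0.23, which covers neither mice, sorts nor labelling.

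Just inside the choice, members in the dimmest 5% had a highest level well above background of -4.54 or less, and the lowest such highest level was -5.34. Just outside it, 10190 probes were left out, with a highest level of at most -4.32 and a 95th percentile of -4.92. The 2 sets thus meet at the same dim levels.

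Signal was present on all 4 arrays for 8106 of the 10529 members (77%), against 83.8% of the 19737 probes with NM_ accessions, the curated messenger RNAs, that were above background on at least 1 array. By subset, 8984, 8768, 9750 and 9030 members were above background from P1 to P4. Members seen on 1 array alone numbered 750 in P3, 221 in P1, 179 in P2 and 139 in P4. Those in P3 were 7.12% of members, against 6.09% of NM_ probes, so the larger number in P3 is not particular to members. The shares were 2.1% against 0.988% in P1, 1.7% against 0.74% in P2 and 1.32% against 0.679% in P4. Single-array signal sat partly in local bright patches of a slide. A spot was placed in such an area when 3 or more neighbouring spots (4 or more on the P3 array) were at least 2-fold above each of the other arrays, and this held for 50.3% of the members seen in P2 alone, 30.8% in P1, 16.5% in P4 and 5.73% in P3. AK077811 is the extreme case, at a level of 5.13 in P2 and not well above background in P1, P3 and P4. Its P2 spot lay in a bright area. Such members stay in the counts below, which are also given without bright areas where that moves them by over 1.5 times, and members described singly had no spot in one unless it is stated.

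Members were dimmer than messenger RNA probes. The median level was -2.38 for members and -0.25 for NM_ probes, and the classes ran from -2.96 for the chr probes, -2.95 for other GenBank accessions and -2.75 for AK clones to -1.85 for ENSMUST. NAP probes stood apart with a median of 2.24, and 92.1% of them were above background on every array. These medians describe the brightness of probe sets, which also depends on probe design, and rank no transcript against another.

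Across the 4 subsets, 2769 members (26.3%) were at least 2-fold apart between their highest and lowest array, against 24.6% of all probes above background and 23% of NM_ probes. Dim probes vary more, so the members were also set against NM_ probes of the same mean level in steps of 1 log2 unit. NM_ probes of that brightness reached 30.4%, 4.1 percentage points more than the members, whose exact 95% interval ran from 25.5% to 27.2% and covers counting error only. Among probes above background on all 4 arrays the shares were 20.8% for members and 21.4% for NM_ probes. Among NAP probes, 9.63% were 2-fold apart against 16.9% of NM_ probes of their brightness. AK, chr and other GenBank probes lay between 28.4% and 29.9%, below NM_ probes of their brightness by 3 to 5.2 points. With signal on all 4 arrays that direction did not hold for every class: AK probes were 1 point below, chr probes 0.3 above (23.7% against 23.4%) and other GenBank probes 0.4 above (23.3% against 22.8%).

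The array on which a variable probe was brightest differed between members and messenger RNA probes. Of the 2769 variable members, 40% had P1 as the highest array, 26.4% P2, 20.2% P3 and 13.4% P4. Of the 4533 variable NM_ probes, 48.5% were highest in P3 and 23.3% in P1. Over all 7993 variable probes the shares were 30.3% (P1), 21.2% (P2), 36.5% (P3) and 12% (P4). These shares were not taken at equal brightness or without bright areas. ENSMUST, AK, chr, other GenBank, NAP and BC probes each had P1 as the most frequent highest array, at 35.3% to 43.2% of their variable probes. The curated noncoding class NR_ (43.5%) and the predicted XM_ class (30.6%) did so too, while among predicted noncoding XR_ probes P2 (33.3%) was slightly ahead of P1 (32%).

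P3 against P1 sets effector phenotype cells against naive phenotype cells and gave the widest spread. Of 10187 members above background on at least 1 of these arrays, 520 (5.1%) were at least 2-fold higher in P3 and 1372 (13.5%) at least 2-fold lower. Over all 31710 probes the shares were 8.98% higher and 9.21% lower, and over NM_ probes 11.1% higher and 6.34% lower. The median difference was -0.38 for members, -0.11 for NM_ probes and -0.21 for all probes. These counts include bounds, which lean towards lower in P3 because its floor was lower (-5.36 against -4.67 in P1). With signal on both arrays, where no value is a floor, 238 members (2.78%) were higher and 1046 (12.2%) lower. Of all probes with signal on both, 5.54% were higher and 8.34% lower. Past 4-fold, 207 members were higher in P3 and 154 lower. Shares over all probes were not counted past 4-fold, so whether this turn is particular to members was not examined.

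The shift was also seen at equal brightness. Among the 8106 members above background on all 4 arrays, the median P3 minus P1 difference was -0.41, against -0.18 for NM_ probes of the same level, a gap of -0.23. The medians depended on the scaling and the gap did so less: in the authors' processed values they were -0.20 for members and 0.01 for NM_ probes, and with each array scaled to the median of its shared detected probes -0.33 and -0.10. At least 2-fold lower in P3 were 12.3% of these members and 7.39% of NM_ probes of that brightness, and at least 2-fold higher were 2.64% and 8.19%. The gap does not rest on 1 class: it was -0.24 for ENSMUST, -0.25 for AK, -0.23 for chr, -0.25 for BC, -0.17 for other GenBank and -0.12 for NAP probes. It is not particular to probes without a RefSeq accession either, since NR_ probes showed -0.25, XR_ probes -0.24 and XM_ probes -0.15. NM_ probes had the highest median at equal brightness among the classes compared.

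The size of that gap varied with brightness. In bins of 1 log2 unit it lay between -0.19 and -0.28 for levels from -4 to 2 and between -0.13 and -0.14 for levels from 2 to 4. It was -0.34 at levels from 5 to 6, where the median was -0.64 for 175 members and -0.30 for 376 NM_ probes. It was near 0 at both ends, with -0.02 in the dimmest bin and -0.04 in the brightest, where 160 members had a median of -0.79 and 170 NM_ probes of -0.75. These 2 medians depend on the scaling. ENSMUST00000085589, for example, had unscaled signals of 181032 in P1 and 182739 in P3, and levels that differed by -0.72. The probe series, which mark successive Agilent designs, gave the same direction. At levels from -3 to 3, members and NM_ probes had medians of -0.21 and -0.02 in series 51, -0.29 and -0.08 in series 52, -0.39 and -0.16 in series 55, -0.24 and -0.12 in series 65, and -0.34 and -0.11 in series 66.

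Members that were lowest in P3 included several bright ones. AK088035 had levels of 4.52, 4.45, 1.68 and 4.11 in P1, P2, P3 and P4, and AK088368 had 2.66, 2.70, -0.16 and 2.22. Both were near their P1 level in P2 and P4, and the P3 array alone was low. ENSMUST00000156051 read 1.78, 1.40, -1.58 and 1.28, which is 3.36 lower in P3 than in P1. ENSMUST00000161226 read 0.33, -1.05, -3.08 and 0.10, so P2 lay between P3 and the CD44low subsets. ENSMUST00000025048 read 0.20, -0.38, -3.52 and -1.31 and was 3.72 lower in P3 than in P1, with P4 between them. In all, 306 members (2.91%) were at least 2-fold lower in P3 than in each other subset, against 2.15% of all probes and 1.6% of NM_ probes.

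In the other direction, some of the most different members were bright in P3 alone. ENSMUST00000178282 was at 2.75 in P3 and not well above background elsewhere, at least 172-fold above P1, and AK143258 was at 2.45 in P3 and at least 139-fold above P1, again with no other array above background. ENSMUST00000103410 was read by 2 probes, and both were above background on every array. The first read -3.20, -1.23, 3.96 and -0.39 in P1 to P4 and the second -1.19, -0.51, 4.74 and 0.28, which puts P3 143-fold and 60.6-fold above P1. In both probes P1 was lowest, and P2 and P4 lay between. ENSMUST00000200235, also read by 2 probes, was at 2.28 and 2.12 in P3 and at -3.36 or below on the other arrays. ENSMUST00000195192 was read by 3 probes, at -0.88, 0.42 and 0.58 in P3, none of them well above background in P1, P2 or P4. P3 was at least 2-fold above each other subset for 284 members (2.7%), against 4.68% of all probes and 5.86% of NM_ probes.

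The P3 array also differed in markers of other cell types. The 8 marker genes of dendritic cells and class II presentation were all above background in P3, with a summed linear level of 217, against 2.05 to 7.59 in the other subsets, where Xcr1 and Clec9a were not well above background. The class II presentation genes H2-Ab1 (6.44), H2-Eb1 (5.80) and Cd74 (5.66) made up most of the P3 sum. Clec9a was at 0.55 in P3 and Xcr1 was dim there, at -3.79. The 6 macrophage and monocyte markers summed to 27.7 in P3 and 2.49 to 3.25 elsewhere, and erythroid markers to 4.98 and 0.192 to 0.378. Csf1r, of the first list, went the other way and was lowest in P3, at -1.15. Alas2, of the erythroid list, was above background on no array. B cell markers summed to 7.45 in P3 and 4.50 to 5.30 elsewhere, and plasma cell markers to 22.2 and 12.8 to 14.4. Cd79b, at levels of 2.11 to 2.56, made up most of the B cell sum, and Pax5 was above background on no array. Xbp1, at 3.52 to 3.87, made up most of the plasma cell sum, and Sdc1 was lower in P3 (-4.54) than in P4 (-3.74). Natural killer markers summed to 2.59, 13.8, 16.2 and 10.5 from P1 to P4, and plasmacytoid dendritic markers to 35.6 in P3 and 60 to 67.9 elsewhere. Eomes made up most of the natural killer sum, and Ncr1 was above background on no array. Of the plasmacytoid markers, Siglech was lower in P3 (4.34 against 5.59 to 5.77) and Bst2 was not (3.94 against 3.41 to 3.90). The 5 matched T cell markers summed to 439 in P3 and 487 to 585 elsewhere. The part of other cell types in the P3 results was not tested. In such bulk RNA fewer cells of a type and less RNA per cell cannot be told apart.

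P3 against P2, the comparison within CD44high cells, resembled P3 against P1 and shares the P3 array with it. At least 2-fold higher were 452 of 10093 members (4.48%) and lower 1127 (11.2%), against 7.58% and 7.53% of all probes. The median difference was -0.34 for members and -0.07 for NM_ probes, and at equal brightness the gap was -0.23. Past 4-fold, 166 were higher in P3 and 138 lower, again without a count over all probes. ENSMUST00000148559 was among the lowest in P3 of the members measured on all arrays, at -1.78 (P1), -1.79 (P2), -5.03 (P3) and -2.28 (P4).

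For P4 against P1, the subsets that share low CD44, few members stood 2-fold apart. Of 9523, 200 (2.1%) passed 2-fold with P4 higher and 230 (2.42%) with P4 lower, against 3.83% and 1.81% of all probes and 4.79% and 1.33% of NM_ probes. The median was -0.13 for members and -0.04 for NM_ probes and the gap at equal brightness was -0.10. The balance of higher and lower turned with the processing: 181 were higher and 140 lower without bright areas, and 78 higher and 57 lower after normexp background correction. AK013461 had one of the largest differences measured on both arrays, at -3.77 (P1), -4.07 (P2), 0.95 (P3) and 1.19 (P4). P4 exceeded P1 by 31-fold, and P3 and P4 both lay far above P1 and P2. AK049024 read -4.29, -3.12, 1.34 and 0.67 and likewise had P4 31-fold above P1. ENSMUST00000117894 went the other way, at 1.93 (P1), -0.16 (P2), -0.42 (P3) and -1.09 (P4), so that naive phenotype cells were highest and P4 lowest.

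For P4 against P2, 214 of 9442 members (2.27%) passed 2-fold with P4 higher and 307 (3.25%) with P4 lower, against 3.51% and 3.19% of all probes. The median difference was -0.08, and without bright areas 189 were higher and 193 lower. AK162996 read -0.55 (P1), -4.27 (P2), -3.21 (P3) and -0.38 (P4) and so was 14.9-fold higher in P4 than P2. Its 2 CD44low subsets were high and its 2 CD44high subsets low, as also for ENSMUST00000199413 at -1.16, -4.12, -4.04 and -1.49. ENSMUST00000089689 was 3.07 lower in P4 than in P2, at 1.33, 3.13, 1.58 and 0.06, with P2 the highest and P4 the lowest of the subsets.

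For P4 against P3, the 2 CD62Llow subsets, 695 of 10082 members (6.89%) passed 2-fold with P4 higher and 384 (3.81%) with P4 lower, against 5.2% and 6.44% of all probes. NM_ probes were higher in 4.06% and lower in 7.92%. The median was 0.24 for members and 0.06 for NM_ probes. Without bright areas 650 were higher and 352 lower. Past 4-fold, 66 members were higher in P4 and 121 lower, and all probes were not counted there. Among the lower ones was ENSMUST00000103410, whose 2 probes were lower in P4 by 4.35 and 4.46.

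For P2 against P1, 271 of 9397 members (2.88%) passed 2-fold with P2 higher and 196 (2.09%) with P2 lower, against 3.83% and 2.2% of all probes. Without bright areas 167 were higher and 123 lower. The medians were -0.04 for members and -0.05 for NM_ probes, and at equal brightness the gap was 0.01. AK159059 read -3.59 (P1), -0.04 (P2), 0.28 (P3) and -1.71 (P4) and was 11.7-fold higher in P2 than in P1. Its CD44high subsets were at about the same level, with P4 between them and P1. AK162496 was at -1.14 in P2 and between -4.48 and -3.75 in the others, so P2 alone was high.

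A further way to read the 4 levels is by which subsets stood together. The CD62Llow subsets P3 and P4 were both at least 2-fold above both P1 and P2 for 80 members (0.76%), against 1.54% of all probes and 2.01% of NM_ probes. They were 36 ENSMUST, 26 AK and 8 chr probes among others, and 72 of the 80 had no spot in a bright area. AK009549 was one, at 0.64 in P3 and 0.12 in P4, with -4.18 in P2 and no signal well above background in P1. ENSMUST00000122399 reached 5.14 in P3 and 4.66 in P4 against -0.57 in P2, and was at least 641-fold above P1 in P4. Its P3 spot lay in a bright area and its P4 spot did not. ENSMUST00000109428 read -4.00, -3.04, 2.43 and 1.82, with its P2 spot in a bright area.

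Several of these members were read by more than 1 probe. ENSMUST00000179181 had probes at -3.83, -2.48, 0.24 and -0.65 and at -3.69, -1.83, 0.92 and 0.19, so P4 was 3.18 and 3.88 above P1. AK139943 had 2 probes that were above background in P3 and P4 only, at -0.22 and -0.87 for one and -1.23 and -1.89 for the other. ENSMUST00000069009 had one probe at -2.80, -2.86, 1.22 and 0.29 and another above background in P3 (-2.61) and P4 (-3.36) only. In each of these, P3 was above P4 in every probe.

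The opposite pattern, P3 and P4 both at least 2-fold below both P1 and P2, was found for 26 members (0.247%), against 0.163% of all probes and 0.111% of NM_ probes. AK089977 read -1.37, -1.24, -2.95 and -2.89, with the CD62Lhigh subsets close to each other and the CD62Llow subsets close to each other. ENSMUST00000089450 read 1.46, 1.99, 0.03 and 0.24. ENSMUST00000117199 read -1.84, -2.06, -4.12 and -3.51. That the 2 groups of subsets do not overlap follows from how the pattern was defined.

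P1 was at least 2-fold below each other subset for 50 members (0.475%), against 1.24% of all probes. ENSMUST00000198163 read -1.46, 0.83, 3.08 and 1.97, and ENSMUST00000103558 read -1.98, 0.28, 2.50 and 1.46. In both, levels were lowest in P1, then P2, then P4, and highest in P3. CB193180 read -3.75, -1.36, 0.42 and 0.16 with the same order. P1 was at least 2-fold above each other subset for 102 members (0.969%), against 0.73% of all probes, but 37 of the 102 lay outside bright areas on all arrays. ENSMUST00000169842 was one of the 23 measured on all arrays, at -1.73 in P1 and between -4.51 and -4.42 in the others.

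P2 stood at least 2-fold above the others for 144 members (1.37%), against 1.16% of all probes, and 51 of these lay outside bright areas. It stood below the others for 12 members (0.114%), against 0.286% of all probes. ENSMUST00000192250 was a high example at -2.76, -1.30, -3.21 and -2.77, and ENSMUST00000118228 a low one at 0.68, -0.63, 1.52 and 1.33. That P2 stood apart in each follows from how the pattern was defined.

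P4 set itself apart in few members. It was at least 2-fold above each other subset for 40 members (0.38%), against 0.397% of all probes. Of these, 21 lay outside bright areas and 3 were above background on all 4 arrays. Of the latter, AK133080 alone lay outside bright areas, at -4.25, -4.30, -4.81 and -3.23, a level close to background in every subset. ENSMUST00000154886 was above background in P4 alone, at -1.85. P4 was at least 2-fold below each other subset for 8 members (0.076%), against 0.077% of all probes. The difference from the nearest subset was largest for ENSMUST00000120168, at -0.97, -0.92, -1.44 and -3.42, and ENSMUST00000054973 read 0.35, 1.01, 0.98 and -0.76. In both, the other 3 subsets lay nearer to each other than to P4.

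Identifiers carried by several probes allow a check within the arrays that the single probes do not. For P3 minus P1, 193 identifiers had a pair of measured probes, and the 2 differences had the same sign in 85% and correlated at 0.87 over identifiers. Of all members with signal on both arrays, 77.8% were below 0 for P3 minus P1, so unrelated probes would often share a sign too. The 2 probes of an identifier both passed 2-fold for 16 identifiers, always in the same direction, 5 higher and 11 lower. The correlation was 0.71 for P4 minus P1 over 197 identifiers and 0.60 for P4 minus P2 over 187. Probes of an identifier share the labelled RNA and the array, so this says how well probes read a transcript and nothing of how subsets vary between mice.

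Identifiers with close probes included moderate differences. ENSMUST00000144370 was at -1.39 and -1.33 in P1, -1.33 and -1.32 in P2, -2.94 and -2.87 in P3 and -2.07 and -2.21 in P4, lower in P3 than in P1 by both probes. AK171382 was at -1.95 and -2.03 in P1 and at -0.55 and -0.72 in P2, 1.40 and 1.32 higher in P2. ENSMUST00000103274 was highest in P4, at 4.03 and 3.85, with 3.03 and 2.72 in P1, 2.80 and 2.63 in P2 and 3.62 and 3.55 in P3. P4 exceeded P1 by 1.00 and 1.13 there, and P3 lay between them in both probes.

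The named RNAs were 10, of which 6 had signal. Kcnq1ot1 was at 1.85 (P1), 1.79 (P2), 0.43 (P3) and 1.28 (P4), so that P1 and P2 were alike within spot noise and P3 was 1.42 below P1. The 4 RefSeq probes to the same RNA that had signal on these arrays were also lower in P3 than in P1, by differences from -0.72 to -0.48, which is smaller than for the member. Those differences are short of 2-fold and not far from the median P3 minus P1 of -0.41 for members and -0.42 for NR_ probes. For P4 minus P3 only 2 of the 4 had the sign of the member.

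Neat1, the RNA scaffold of nuclear paraspeckles, was at 3.58 (P1), 3.23 (P2), 3.79 (P3) and 3.49 (P4). It was 0.21 higher in P3 than in P1, just past the spot noise half-width of 0.17, and its 2 RefSeq probes were higher by 0.56 and 0.65. For P2 minus P1 the member had -0.35 and the RefSeq probes 0.04 and 0.21, so the probes did not share a direction. Tug1, a widely expressed nuclear and cytoplasmic RNA, was at 1.34, 1.12, 1.62 and 1.18 with its P1 spot in a bright area, and its P3 minus P1 difference of 0.27 stood against -0.11 in the RefSeq probe.

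Xist, which coats the inactive X chromosome, was at -0.05, -0.04, -0.43 and -0.29. It differed by less than 2-fold between any of the subsets, and its RefSeq probe was 1.12 higher in P2 than in P1 where the member had 0.01. Pinc, first described in mammary gland, was dim at -3.94, -4.08, -4.49 and -4.18. Nron, known as a repressor of NFAT nuclear transport, was above background in P2 (-4.35) and P3 (-4.72) only. The probes labelled TSIX, lincP21, H19 and HOTAIR were not well above background on any array.

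Among accessions that name a protein-coding gene, Cd226 gave the clearest pattern. It encodes DNAM-1, an activating receptor of T and natural killer cells. The member BC051526 was at 1.15 (P1), 0.09 (P2), 0.52 (P3) and 0.88 (P4), and the RefSeq probe was at 0.94, -0.10, 0.46 and 0.52. Both probes put P1 highest and P2 lowest, with P2 minus P1 differences of -1.06 and -1.04. P4 was above P3 by 0.36 in the member and by 0.07 in the RefSeq probe, the latter within spot noise.

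Apobec3, a cytidine deaminase that restricts retroviruses, was at -3.24, -2.71, -2.47 and -3.05 in the member BC003314. All 3 RefSeq probes had its sign for every pair of subsets. P3 was 0.76 above P1 in the member and 0.78 to 1.1 above it in the RefSeq probes. Sbno2 was 0.90 higher in P3 than in P1 in the dim member BC019206, with 0.33 to 0.87 in 3 RefSeq probes. For P4 minus P1 the member had 0.39 and the RefSeq probes -0.07 to 0, so none shared its sign. The dim member BC027092, an accession of Cep164, was above background in P1 and P3 only, with a P3 minus P1 difference of -0.75 beside -1.22 to -0.60 in 3 RefSeq probes. Other members differed from RefSeq probes of their gene for P3 minus P1 itself. BC031575, an accession of Marf1, was 0.36 higher in P3 than in P1. Its 2 RefSeq probes had -0.61, with the P1 spot in a bright area, and -0.03. BC065788, an accession of Zfp961, was 0.65 lower, and its 3 RefSeq probes ran from -1.30 to 0.36.

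The chr probes are the members with a stated position. They numbered 4450 on the array, of which 1030 with suffix F and 1082 with suffix R were members. Regions of members ran from 67 to 538251 bases with a median of 11226. With probes split by region length into 5 groups of about equal size, 39.1% of probes to the shortest regions (62 to 811 bases) had signal. In the groups with longer regions it was 48.8% to 50.9% of probes. Probes came from 19 autosomes and the X chromosome, and the median P3 minus P1 difference of members was below 0 on each, from -0.56 on chromosome 7 to -0.20 on chromosome 14.

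The 2 suffixes of a region often differed. Both had probes for 832 regions, and of these 278 had signal for both suffixes, 357 for 1 of them and 197 for neither. Where both were above background on all arrays, 172 regions, the P3 minus P1 differences had the same sign in 72.1% and correlated at 0.31 over regions, against 0.87 for probes to 1 identifier. The 2 values come from different sets of probes and were not tested against each other. Both suffixes passed 2-fold in 7 regions of the 50 where at least 1 did. Of all chr members with signal on both arrays, 78.1% were below 0 for P3 minus P1, 14.1% at least 2-fold lower and 2.6% at least 2-fold higher. Unrelated probes would thus often share a sign, and the agreement of suffixes was not set against theirs.

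Some overlapping chr members passed 2-fold in the same direction. There were 515 groups of overlapping regions with at least 2 members, holding 1366 members. Groups in which at least 2 members outside bright areas were 2-fold apart in the same direction numbered 32 lower and 7 higher for P3 minus P1, and 1 lower and 2 higher for P4 minus P1. Of all chr members with signal on at least 1 array of the pair, 16.2% were 2-fold lower and 3.73% higher for P3 minus P1. For P4 minus P1 the shares were 3.63% and 1.68%. How many groups these shares alone would give was not computed. Some of the differences in these groups are bounds from the floor, which lay lower in P3. Overlapping probes may read the same transcript, so members of a group are not independent.

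At chr10:83181374-83249918 (mm9) the suffixes disagreed. Both F probes were at the floor in P1 and highest in P3, the first at -0.35 and the second at 0.02. In P2 they were at -4.37, not well above background, and -3.74, and in P4 at -4.21 and -3.55. The R probes of that group read 0.44, 0.70, 0.65 and 0.50 and -3.03, -2.47, -3.10 and -2.76, with no 2-fold difference, the first with its P2 spot and the second with its P3 spot in a bright area. At chr10:93774693-93976621 both F probes were above background in P3 alone, at -1.15 and -1.74. The R probe there stayed between -3.55 and -3.08 on all arrays.

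The region chr5:96591892-96606467 was read by 3 F probes, at -1.42, -0.28 and -0.82 in P3 and at -3.28 or below elsewhere. Its R probe was above background in P3 alone, at -4.82. P3 was the high subset in every F probe, by 2.65 to 3.36 over P1, where the first was at the floor; that probe's P4 spot lay in a bright area. At chr16:84702353-84710928 all 3 members were graded, with -0.96, -0.22, 1.40 and 0.12 in the longest region, -3.39, -2.15, -1.05 and -1.85 in the next and 0.16, 0.92, 1.89 and 1.21 in the shortest. P4 exceeded P1 by 1.05 to 1.54 and P3 exceeded P1 by 1.73 to 2.36, and each probe ranked P1 lowest and P3 highest.

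Groups that were low in P3 were more common, as were single chr members low in P3. At chr1:158903230-159007700 the 3 members read -1.55, -1.72, -2.80 and -2.04, then -1.60, -1.72, -3.14 and -1.73, then -2.86, -2.83, -4.19 and -2.53. P3 was the lowest subset in each, and F and R probes gave the same direction. At chr17:56687541-56694631, 2 of the 4 members read 0.92, 0.71, -0.55 and 0.43 (R) and -0.03, -0.31, -1.87 and -0.53 (F), again with P3 alone low, and the other 2 were at -4.16 or below on every array. At chr14:55671783-55680316 a pair of R probes set P2 apart, at -2.46 and 0.92 in P2 against -4.05 and -0.62 in P1, and P2 exceeded P1 by 1.59 and 1.54, while the F member there stayed between -3.89 and -3.53. Both probes of chr6:54591416-54597566 were higher in P2 and P3, with -4.20, -2.72, -2.51 and -3.61 for F and -4.24, -2.63, -2.53 and -4.18 for R. There the CD44high subsets were above the CD44low subsets.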

How the data were processed

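Total RNA of 4 sorted CD8 subsets was reverse transcribed with random primer and labelled with Cy3 for single-colour arrays, per the labels' protocols. Spot intensity is that of Agilent Feature Extraction 11.0.1.1, per the file headers. The deposited processed intensity has background removed and is not normalized between arrays. The authors' deposited value table holds log2 values with the same sorted values in each column, read as quantile normalised. The tool was not given in the sources used here. Other deposited columns are flags and positions.

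Levels are the log2 signal less that of the 75th percentile of the array, with repeated spots averaged and outlier spots left out (122 to 152 per array, 0 saturated). A pair of subsets used probes flagged well above background on either array. With 1 array per subset, differences were counted at 2-fold without a test, and the number of arrays limits the precision. NM_ probes of the same brightness were taken in bins of 1 log2 unit with at least 20 NM_ probes, with none drawn at random. A spot lay in a bright area if the stated number of spots within 32 position units was raised.

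Members, marker lists, pairs and the naming rule were chosen with earlier results of these data known. The rule took, per pair, the 3 members with the largest difference each way that were measured on both arrays and 2 with the largest bounds, outside bright areas, plus the 5 of largest range and the 3 brightest per class; not all are given singly. It was written for gene names. The files used here hold none, so identifiers that differ from the probe name were used, and name lists could not be applied. Members that lead a pattern over the 4 subsets, identifiers with several probes and groups of regions were chosen after their values were seen. Names came from RefSeq tables of GRCm38.p6, never joined to the mm9 regions by position. The alternatives are in the closing section. Counting was tested on simulated data. Python 3.11.15, numpy 2.4.6, pandas 2.3.3, scipy 1.17.1, R 4.3.3 and limma 3.58.1 were used.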

Additional observations from a re-analysis of the deposited data

How the results depend on the processing

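The counts of members at least 2-fold apart depended on how dim spots were treated, and the cause was not tested beyond what each setting does. For P4 minus P1 (430), P4 minus P2 (521), P4 minus P3 (1079), P2 minus P1 (467), P3 minus P1 (1892) and P3 minus P2 (1579), in that order, normexp background correction with an offset of 50 gave 135, 171, 380, 166, 771 and 695. No filter and no floor gave 1843, 1781, 2823, 1707, 3851 and 3353. The authors' processed values, which list 8107 of the members, gave 202, 269, 406, 217, 787 and 665. A 4-fold threshold gave 113, 116, 187, 139, 361 and 304. Signal on both arrays gave 209, 288, 697 and 225 for the first 4 pairs and 1050 for P3 minus P2, and left P3 minus P1 within 1.5 times (1284). Leaving out bright areas moved P2 minus P1 to 290. The 2769 members 2-fold apart over the 4 arrays became 1211 with normexp, 1689 with signal on all 4 arrays, 6542 with no filter, 1251 in the authors' values, 552 at 4-fold and 847 without the P3 array. Their share against NM_ probes of the same brightness, -4.1 points, was -1.4 with the highest level as the measure of brightness, -0.6 with signal on all 4 arrays and -6.8 without the P3 array (8.7% against 15.5%). The other 30 values over these settings stayed within 1.5 times or within their interval, among them those under quantile normalization and with outlier spots kept. The gap to NM_ probes at equal brightness was recomputed under alternatives chosen after seeing the data, and for P3 minus P1 (-0.23) it ran from -0.28 to -0.19, although the members' own median ran from -0.45 to -0.20. Dim members are limited by their closeness to background, and differences from a floor are bounds. Leaving out members that share a gene name with a RefSeq probe was not run, because the files used here hold no gene names. No paired analysis was possible because each subset has 1 array.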
